A study of Mus musculus with 11 samples.

Results

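Baseline transcriptomes were described for the mammary tumors of PyMT *Pcbp1*+/+ mice, the tumors whose genotype label is wild type, which were 5 of the 11 tumors sequenced. All deposited genes were used and the 5 tumors were described by themselves. The study asked what loss of the poly(C)-binding protein PCBP1 in mammary epithelial cells does to breast tumor development, and sequenced bulk RNA from whole tumors of 18-week-old females. The mice were on a C57BL/6 background and carried the MMTV-PyMT transgene (polyomavirus middle T antigen), the MMTV-Cre transgene and non-floxed *Pcbp1*(wt/wt) alleles. The MMTV promoter is active mainly in mammary epithelium, so the oncogene and Cre were both driven in these cells, while stromal cells of each tumor entered the RNA without the oncogene being aimed at them. Each tumor is a separate sample, the labels place all of them in 1 batch, and they describe poly(A)-enriched, stranded libraries. Values for the 5 tumors are given below in the order of replicates 1 to 5, and the replicate numbers only name the tumors.

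Middle T antigen sits at the plasma membrane and activates Src family kinases and the PI3K and MAPK pathways, which turns mammary epithelium into multifocal carcinoma. Normal mammary ducts consist of an inner luminal layer, which contains the cells that respond to hormones and make milk, and an outer basal layer of contractile myoepithelial cells. Around them lie fibroblasts, adipocytes, vessels and immune cells, all of which can contribute RNA to a bulk tumor sample.

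The deposited estimated counts summed to 10945798, 10543189, 11411776, 10975700 and 11198153 over 26283 genes, of which 16314 are annotated as protein-coding. Expression is given as the deposited CPM, counts scaled to the same total in every tumor. A protein-coding gene reached at least 1 CPM in 13517, 13306, 13424, 13569 and 13030 cases, lowest in replicate 5. With 0 counts observed, up to 3 counts are allowed, which was 0.274, 0.285, 0.263, 0.273 and 0.268 CPM; such limits and all intervals cover counting error only. Chi-square per degree of freedom between tumors, computed to look for a library deposited more than once, lay between 25.5 and 98.8 over genes with a mean of at least 50 counts, and no such pair was found.

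Genes that bear on the labels of genotype, sex and tissue were looked at first. The level of *Pcbp1* in this group alone cannot test the genotype label. *Pcbp1*, which encodes the RNA- and DNA-binding protein the study is about, was at 249 ± 24.4 CPM (SD, n = 5), and every tumor lay between 220 and 271 CPM. Its paralog *Pcbp2* was at 48.7 ± 5.74 CPM (SD, n = 5). *Xist*, the RNA of the inactive X chromosome, was at 4681, 3446, 2152, 4526 and 2770 CPM, so all 5 tumors carried this transcript. The epithelial adhesion gene *Epcam* was at 258, 178, 230, 252 and 363 CPM, and the luminal keratin genes *Krt8* and *Krt18* lay between 189 and 319 CPM and between 157 and 237 CPM. Epithelial markers were thus present in each tumor, while a pair of milk protein genes was low. *Csn2*, which encodes beta-casein, was at 0, 3.98, 3.86, 0.364 and 0.893 CPM. *Wap*, which encodes whey acidic protein, was at 1.19, 0.379, 2.02, 1.46 and 14.8 CPM, highest in replicate 5.

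Only part of each library came from messenger RNA. Protein-coding genes held 61.4%, 56.7%, 51.7%, 59.1% and 54.0% of the counts. Genes annotated as long intergenic noncoding RNA, among them *RP23-81C12.1* and *RP23-81C12.3* beside the 18S ribosomal RNA gene, held 16.7%, 18.3%, 18.1%, 16.3% and 22.6%. The class of miscellaneous RNAs held between 7.03% and 8.75%, processed pseudogenes between 4.52% and 6.12%, and the mitochondrial ribosomal RNAs between 4.02% and 5.76%. The class of nuclear ribosomal RNA is the single gene *Rn18s-rs5* and leaves out *RP23-81C12.3* inside its interval and the adjacent *RP23-81C12.1*. It held 0.397% (95% exact Clopper-Pearson interval 0.393% to 0.400%) in replicate 1 and 8.72% (8.71% to 8.74%) in replicate 3. The share was 1.84% in replicate 2, 1.79% in replicate 4 and 1.35% in replicate 5. Replicate 3 thus had the smallest protein-coding share and the largest share in *Rn18s-rs5*. Ribosomal RNA normally lacks a poly(A) tail, as do most replication-dependent histone messengers, so the shares and levels of these RNAs sit poorly with the poly(A) enrichment that the labels give.

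**Figure D1:**
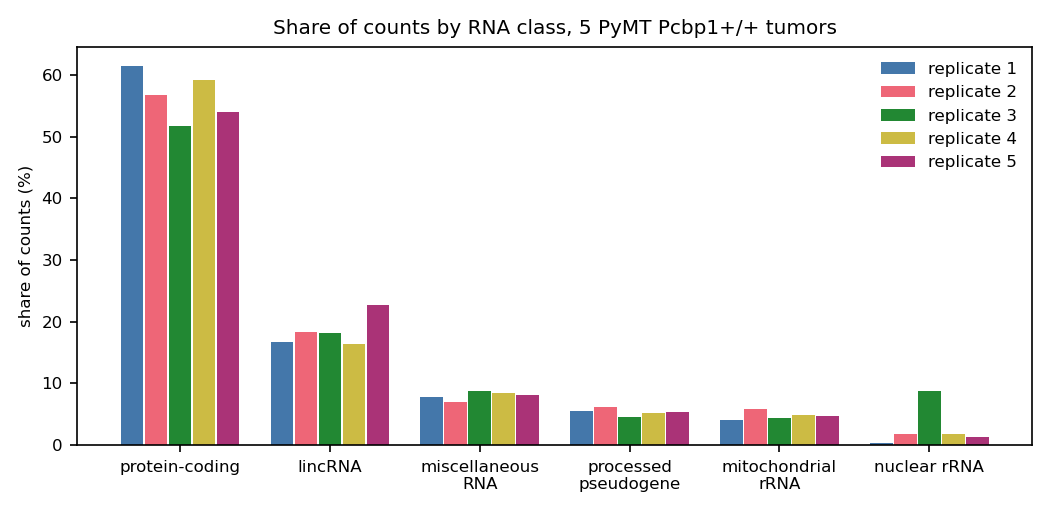
Share of counts (%, vertical axis) of the RNA classes that held the most counts, with 1 bar per PyMT *Pcbp1*+/+ tumor. Protein-coding genes held between 51.7% and 61.4% of the counts. The class of nuclear ribosomal RNA, which is the single gene *Rn18s-rs5*, stood at 8.72% in replicate 3.

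The noncoding genes behind these shares were picked after their values were seen. A single interval of chromosome 17 of GRCm38 held the largest share. *RP23-81C12.1*, annotated as an intergenic RNA gene at chr17:39843013-39846341, was at 113252, 125282, 122815, 104658 and 169621 CPM, highest in replicate 5. The part of ribosomal RNA in its level was not tested, and what its reads come from is uncertain. The adjacent 18S ribosomal RNA gene *Rn18s-rs5* (chr17:39846353-39848827) was at 3966, 18380, 87205, 17936 and 13455 CPM. *RP23-81C12.3* (chr17:39846958-39848788) lies within the interval of *Rn18s-rs5*, so that reads of these 2 genes cannot be told apart unless counting used strand, and its values were 12826, 20465, 28476, 19153 and 25669 CPM. *Rn7s1* and *Rn7s2*, nearly identical copies of the RNA of the signal recognition particle, were each between 30896 and 40278 CPM, and how reads were divided between them is uncertain. *Malat1*, a nuclear noncoding RNA, was at 21426, 14848, 16328, 19614 and 15574 CPM.

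Among the protein-coding genes, the insulin-like growth factor binding protein gene *Igfbp5* was the most abundant nuclear gene in these tumors. Its CPM was 18073, 18826, 13841, 18393 and 11022, lowest in replicate 5. Where not said otherwise, genes are ranked by CPM per kb of annotated exon, and *Igfbp5* stood at 2669 ± 573 CPM per kb (SD, n = 5). With the genes of uncertain level below set aside, *Actb*, which encodes beta-actin, followed at 620 ± 73.7 CPM per kb. *Actg1*, which encodes gamma-actin, was last of the 15 most abundant nuclear genes per kb, at 260 ± 50.2 CPM per kb. The translation elongation factor gene *Eef1a1* was at 290 ± 23.8 CPM per kb, and the ribosomal protein gene *Rpl41* at 387 ± 72.1 CPM per kb. Genes of secretory mammary epithelium were also among the 15 most abundant per kb. *Lcn2*, which encodes the iron-sequestering lipocalin-2, had 1356, 871, 650, 1022 and 1140 CPM and a mean of 384 ± 102 CPM per kb. *Csn3*, which encodes the micelle-stabilizing kappa-casein, had 2085, 361, 1169, 1859 and 1637 CPM and a mean of 343 ± 165 CPM per kb. *Csn3* was low in replicate 2 alone and at least 1169 CPM in the other tumors.

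Other genes on the list of 15 are short or belong to families of near-identical copies, and their levels are uncertain because the reads could have been divided between copies. *Gm10073* (1124 CPM per kb), *RP24-228M19.1* (556), *Rps27rt* (502), *Rps12-ps3* (454), *RP23-371K8.1* (404), *RP23-24J10.5* (295) and *Rpl27-ps3* (279) were of this kind by name or length. *Hist1h4h*, one of many histone H4 genes, was at 365 ± 50.2 CPM per kb.

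Mitochondrially encoded messengers covered a wide range per kb. *mt-Co1*, which encodes a subunit of cytochrome c oxidase, had 3911, 5559, 4480, 4716 and 5435 CPM and a mean of 3120 ± 443 CPM per kb. *mt-Cytb* of complex III followed at 1261 ± 177, the ATP synthase subunit gene *mt-Atp6* at 1181 ± 182 and *mt-Nd1* of complex I at 1103 ± 178 CPM per kb. *mt-Nd3* was lowest of the 13 at 165 ± 23.5 CPM per kb. Summed over the 13 genes, the level was 10201, 13196, 11802, 12315 and 14462 CPM, lowest in replicate 1.

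Ranking by CPM alone, which favors long transcripts, added genes of other kinds to the leading 15. *Ahnak*, which encodes a giant scaffold protein, had 4151, 4981, 2446, 3471 and 2317 CPM. The zinc finger repressor gene *Trps1*, a marker of mammary epithelium, had 2833, 2035, 2146, 2740 and 2259 CPM. The nuclear factor I gene *Nfib* lay between 1429 and 1996 CPM, and the splicing scaffold gene *Srrm2* between 1228 and 1634 CPM. Interferon-responsive *Ly6e*, which encodes a membrane-anchored antiviral protein, had 1303, 808, 1051, 1374 and 876 CPM. The 10 most abundant protein-coding genes together held 6.22%, 7.16%, 7.02%, 6.62% and 5.74% of the protein-coding CPM.

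*Lars2*, annotated as the mitochondrial leucyl-tRNA synthetase gene (chr9:123366927-123462666), stood apart in this group. Its CPM was 270, 2002, 6521, 1732 and 1311. The highest tumor was replicate 3 and the lowest replicate 1, and the 5 tumors fell in the same order as for *Rn18s-rs5*. The part of ribosomal RNA reads in the level of *Lars2* was not tested, and its level is uncertain.

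Most protein-coding genes differed little between the tumors. Over the 10871 protein-coding genes with a mean of at least 5 CPM, the median range from the lowest to the highest tumor was 0.56 in log2(CPM + 1), a factor of 1.48, and the 90th percentile was 1.43. At least a 4-fold range on this scale was reached by 481 genes, 4.42% of those tested. Without replicate 2 the number fell to 229, and it was 725 with no filter on low expression and 237 among genes with a mean of at least 20 CPM. With a median of at least 5 CPM in place of the mean it was 434. The edgeR fit to all genes, which takes counting noise out of the spread, gave a common biological coefficient of variation of 0.245 over 17077 genes and a median of 0.199 for single genes. Coefficients of single genes are imprecise with 5 tumors, and only those of the steadiest genes are printed here. *Wapl*, which encodes a protein that releases cohesin from chromatin, had among the smallest coefficients at 0.14, with 108, 103, 93.6, 108 and 97.5 CPM. The chromatin remodeler gene *Chd2* was similarly even, with 123, 116, 108, 123 and 112 CPM.

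Which tumor was highest or lowest was not spread evenly over the genes. A gene was highest in replicates 1 to 5 in 29.8%, 29.8%, 4.75%, 21.0% and 14.7% of the 10871 genes, and lowest in 9.06%, 26.1%, 32.1%, 7.09% and 25.6%. These shares moved with the scaling. With TMM-scaled CPM the highest tumor was replicate 1 to 5 in 19.0%, 28.7%, 13.0%, 14.6% and 24.6% of genes, and the lowest in 18.6%, 31.8%, 12.7%, 16.3% and 20.7%. On deposited CPM the median gene lay 0.09 above its own mean in replicate 1 and at -0.11 in replicate 3 on the log2 scale, the tumors with the largest and the smallest protein-coding share, and with TMM scaling both medians were within 0.01 of 0.

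A principal component analysis of the same genes placed replicate 2 apart on the first component, which held 45.3% of the variance, with a coordinate of -45.2 against values between -2.10 and 18.7 in the other tumors. The second component, with 32.3%, ran from replicate 1 at -23.3 to replicate 5 at 35.1. Of the 481 genes with a 4-fold range, the highest tumor was replicate 1 in 196, replicate 2 in 131, replicate 3 in 52, replicate 4 in 60 and replicate 5 in 42. The lowest tumor was replicate 2 in 217 and replicate 5 in 207 of them. Grouped by both, 17 of the 20 possible pairs of highest and lowest tumor occurred, and 3 pairs held most genes: replicate 1 over replicate 2 with 112 genes, replicate 2 over replicate 5 with 90 and replicate 1 over replicate 5 with 80.

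The genes with the largest ranges in the first of these groups included *Dmbt1*, *Gfap* and *Il17b*. *Dmbt1*, which encodes a scavenger receptor-like mucosal glycoprotein, had 89.3, 1.04, 19.7, 41.0 and 7.41 CPM, an 85.6-fold range. *Gfap*, which encodes an intermediate filament protein best known from astrocytes, had 91.7, 4.36, 5.34, 13.9 and 15.4 CPM. The cytokine gene *Il17b* had 45.1, 1.52, 8.24, 8.47 and 3.66 CPM. All of them were highest in replicate 1 and lowest in replicate 2. *Slitrk4*, which encodes a neuronal transmembrane protein and is among the 25 genes with the largest spread, was high in replicates 1 and 4, with 22.3, 0.474, 5.78, 19.8 and 0.982 CPM.

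Replicate 2 over replicate 5 was led by a keratin gene. *Krt14* (chr11:100203162-100207548), the partner keratin of basal cells, had 47.6, 277, 10.9, 20.3 and 4.64 CPM and the largest spread on the log2 scale of all genes tested. The kinase gene *Dclk2* had 24.2, 201, 17.4, 24.7 and 8.93 CPM, and *Frem2*, which encodes a basement membrane protein, had 26.2, 54.7, 9.81, 7.93 and 1.52 CPM. Both were highest in replicate 2, and *Dclk2* was elevated there alone. *Exoc3l4* was at 14.5, 56.3, 6.48, 7.53 and 2.05 CPM.

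Replicate 1 over replicate 5 was led by *Krt5* and *Pgr*. *Krt5* (chr15:101707070-101712898), the usual partner of *Krt14*, had 184, 9.01, 25.8, 24.5 and 3.13 CPM. *Krt5* was thus highest in replicate 1 and low in replicate 2, where *Krt14* peaked. *Pgr* (chr9:8899833-8968611), which encodes the progesterone receptor, had 167, 10.6, 22.4, 25.3 and 5.36 CPM, a 31.3-fold range. The retinaldehyde dehydrogenase gene *Aldh1a3* had 150, 12.1, 17.0, 32.1 and 7.14 CPM, and the neurotrophin receptor gene *Ntrk3* had 57.6, 3.79, 12.7, 18.4 and 2.23 CPM. The choline transporter gene *Slc5a7* had 82.9, 2.94, 8.50, 19.6 and 2.86 CPM. In each of these genes replicate 1 was well above all other tumors.

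**Figure D2:**
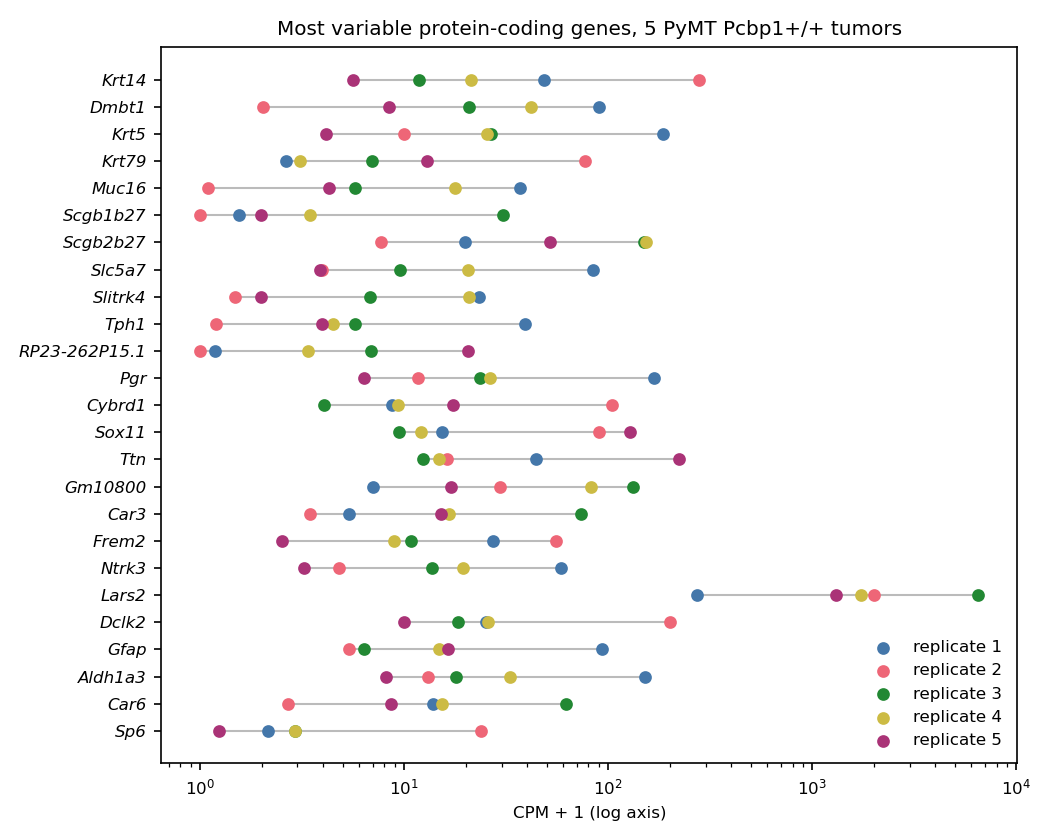
CPM + 1 on a log axis of the 25 protein-coding genes with the largest SD of log2(CPM + 1), 1 point per PyMT *Pcbp1*+/+ tumor, with gray lines from the lowest to the highest tumor. *Krt5* and *Pgr* peak in replicate 1, *Krt14* and *Krt79* in replicate 2, *Car3* and *Lars2* in replicate 3 and *Ttn* in replicate 5. *Tph1*, *Sp6*, *Scgb1b27* and *RP23-262P15.1* passed the mean of 5 CPM only through replicates 1, 2, 3 and 5, in that order.

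Further genes among the 25 with the largest spread belonged to a single tumor or to a pair. *Krt79*, a keratin gene of skin appendages, had 1.64, 76.1, 5.96, 2.10 and 11.9 CPM, and *Cybrd1*, which encodes a ferric reductase, had 7.67, 104, 3.07, 8.29 and 16.3 CPM. Replicate 2 was highest for both. *Sox11*, which encodes a developmental transcription factor, was high in replicates 2 and 5, with 14.3, 88.8, 8.41, 11.0 and 127 CPM. The secretoglobin genes *Scgb2b27* (18.9, 6.73, 149, 151 and 50.5 CPM) and *Scgb1b27* (0.548, 0, 29.6, 2.46 and 0.982 CPM) are neighbors on chromosome 7 in a family of similar copies, and reached their highest level in replicates 4 and 3. *Scgb1b27* passed the mean of 5 CPM only through replicate 3, so its place among the 25 is partly fixed by the filter. *Car6*, which encodes a secreted carbonic anhydrase, peaked in replicate 3, with 12.9, 1.71, 61.0, 14.4 and 7.59 CPM. *Gm10800*, a short gene model on chromosome 2 whose level is uncertain, was at 6.03, 28.4, 131, 81.7 and 15.99 CPM.

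A smaller set of genes was on in some tumors and off in others, with at most 3 counts in at least 1 tumor and at least 5 CPM in another. This held for 64 genes, 0.548% of the 11674 protein-coding genes that reached 5 CPM in any tumor, and for 21 genes when off meant 0 counts and 18 when on meant 10 CPM. Without replicate 2 the number was 25, and 42 without replicate 1 and also 42 without replicate 5. Replicates 1 to 5 were at 3 counts or fewer for 19, 37, 10, 14 and 23 of the 64. The matching shares over all 11674 genes were not computed, and replicate 2 had the smallest total of counts. *Tph1*, which encodes the serotonin-synthesizing tryptophan hydroxylase of peripheral tissue, had 418, 2, 54, 38 and 33 estimated counts. *Muc16*, the gene of the mucin that carries the CA-125 epitope, had 392, 1, 54, 184 and 37 counts. Both were nearly absent from replicate 2. *Aoc1*, a diamine oxidase gene, had 242 counts in replicate 1, 2 in replicate 2 and 0 in the other tumors. The homeobox gene *Tlx1* had 3, 186, 0, 4 and 1 counts, and so was on in replicate 2 alone. *Sp6*, which encodes a transcription factor of teeth and skin appendages, had 1.15, 22.9, 1.92, 1.91 and 0.243 CPM. *Pcp4*, a calmodulin regulator gene, was on in replicate 1 with 14.4 CPM and at most 1.09 CPM elsewhere. *Gabra4*, which encodes a GABA receptor subunit, had 2.47, 0.285, 12.4, 9.02 and 18.7 CPM, lowest in replicate 2.

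Cell type content was read from lists of marker genes. For each list the level in a tumor is the median over its members, among those with a mean of at least 1 CPM, of log2(CPM + 1) minus the mean of that gene over the 5 tumors, and the summed CPM is given beside it. Where a gene is low, it can pass this mean through 1 tumor alone, as 2 of 15 adipocyte genes did through replicate 3 and 3 of 5 skeletal muscle genes through replicate 5, and the level there is then partly fixed by the filter. In bulk tumors, fewer cells of a type and less RNA per cell cannot be told apart. Of 33 lists, 14 had levels that spanned at least 1 on the log2 scale; among these, neutrophils rest on 1 gene, and natural killer cells and skeletal muscle mainly on genes that passed the mean through 1 tumor.

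All 29 luminal genes listed had a mean of at least 1 CPM, and 3 of them stand in other lists too. Their sums were 6574, 4414, 4515, 5906 and 5452 CPM and their levels were 0.31, -0.37, -0.14, 0.19 and -0.01. The list level spanned 0.67 and was lowest in replicate 2, without which it spanned 0.34. Of 28 members with a mean of at least 5 CPM, 6 had a 4-fold range, against 4.42% of all genes tested. *Cited1*, among these 6, passed that mean only through replicate 3. *Lcn2* was the most abundant member per kb. The receptor tyrosine kinase gene *Kit*, a marker of luminal progenitors, had 604, 431, 326, 533 and 231 CPM, and the epithelial transcription factor gene *Ehf* had 437, 718, 483, 497 and 638 CPM. *Cited1*, which encodes a transcriptional coactivator, was much less even, with 4.11, 0.379, 16.7, 12.2 and 2.59 CPM.

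Basal and myoepithelial genes varied far more. Of 14 members with a mean of at least 5 CPM, 13 had a 4-fold range, against 4.42% of all genes tested, and the median range of the 14 was 3.58 against 0.56 over all genes tested. List levels were 1.69, -1.27, 0.23, 0.24 and -1.14, and the summed levels 1770, 560, 669, 752 and 472 CPM. Replicate 1 was high, replicates 3 and 4 were intermediate, and replicates 2 and 5 were low. Replicate 1 was highest for 11 of the 14, against 29.8% of all genes tested. The lowest tumor was replicate 2 for 7 and replicate 5 for 7, against 26.1% and 25.6%. Without replicate 1 the list level still spanned 1.48. All 15 listed members had a mean of at least 1 CPM.

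*Trp63*, which encodes the transcription factor p63 that maintains basal cells, had 61.3, 18.5, 21.8, 26.4 and 9.29 CPM. *Mylk*, which encodes the kinase of myosin light chain, had 330, 27.5, 127, 126 and 43.5 CPM, and *Oxtr*, which encodes the oxytocin receptor of contracting myoepithelium, had 238, 17.5, 103, 134 and 45.9 CPM. These genes were highest in replicate 1. *Lgr6*, which encodes an R-spondin receptor, had 275, 51.7, 137, 149 and 271 CPM, so that replicate 5, low for most of the list, was nearly as high as replicate 1. *Krt14* was the most abundant member per kb at 38.4 CPM per kb, and it peaked in replicate 2, where most of the list was low. One other member, *Krt17*, named here after its values were seen, peaked there as well.

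Genes of milk and secretion separated replicate 2 from the other tumors by their list level, though not in every member. Their levels were 0.31, -1.12, 0.18, 0.20 and 0.27, and their sums 4525, 1704, 2594, 3557 and 3300 CPM. Of the 19 listed, 15 had a mean of at least 1 CPM, *Olah* was at 3 counts or fewer in every tumor, and 2 members stand in other lists. Replicate 2 was lowest for 8 of 12 members with a mean of at least 5 CPM, against 26.1% of all genes tested. It was highest for 2 of the 12, against 29.8%, and also for *Csn2*, which lay below that mean. *Csn3* led the list per kb. *Lalba*, which encodes alpha-lactalbumin, had 35.4, 9.20, 47.0, 62.6 and 18.1 CPM, and *Prlr*, which encodes the prolactin receptor, had 509, 103, 310, 457 and 205 CPM. *Mfge8*, which encodes the milk fat globule protein lactadherin, took another order, with 1012, 701, 308, 350 and 551 CPM. Without replicate 2 the list level spanned 0.20.

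Genes of dividing cells were present in all tumors. The median range of the 18 members with a mean of at least 5 CPM was 0.73, against 0.56 over all genes tested, and 0 of them had a 4-fold range. Their sums were 471, 763, 584, 719 and 644 CPM and their levels -0.37, 0.37, -0.14, 0.08 and 0.11. Replicate 1 was lowest for 15 of the 18, against 9.06% of all genes tested, and replicate 2 was highest for 15, against 29.8%. *Mki67*, the gene of the Ki-67 antigen and the most abundant member per kb, had 246, 335, 302, 392 and 324 CPM. *Top2a*, which encodes topoisomerase II alpha, had 22.9, 59.4, 35.1, 37.6 and 38.7 CPM, and the survivin gene *Birc5* had 8.22, 26.8, 13.4, 12.8 and 15.99 CPM.

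Stromal content was measured with lists for fibroblasts, mural cells, vessels and adipocytes. The 21 fibroblast genes, 20 of them with a mean of at least 1 CPM, summed to 944, 989, 1291, 1324 and 721 CPM, and their levels were -0.06, -0.26, 0.33, 0.32 and -0.48. Replicates 3 and 4 were highest and replicate 5 lowest. *Col1a1*, the gene of the main fibrillar collagen and the most abundant member per kb, had 107, 208, 171, 206 and 140 CPM. *Dcn*, which encodes the collagen-binding proteoglycan decorin, had 19.6, 9.20, 63.5, 68.2 and 16.9 CPM. *Pdgfra*, the receptor gene that marks fibroblasts, had 15.99, 32.2, 32.3, 34.9 and 19.4 CPM. *Col1a1* was thus abundant in replicate 2 while *Dcn* was lowest there, so members of the list did not move as 1 unit.

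The 9 pericyte and smooth muscle genes, 8 with a mean of at least 1 CPM, summed to 277, 219, 224, 286 and 167 CPM and had levels of 0.18, -0.10, -0.03, 0.18 and -0.36. The span of this list was 0.54, and 0.21 without replicate 5. *Notch3*, a receptor gene of mural cells and the most abundant member per kb, had 137, 116, 107, 142 and 89.5 CPM. All 17 genes of blood endothelium had a mean of at least 1 CPM, with sums of 156, 189, 176, 202 and 114 CPM and levels of -0.05, -0.02, 0.18, 0.27 and -0.45. *Cdh5*, which encodes vascular endothelial cadherin and led the list per kb, had 22.7, 35.1, 23.9, 27.9 and 18.3 CPM. Replicate 5 was lowest for 9 of 10 endothelial members with a mean of at least 5 CPM, against 25.6% of all genes tested, and without it the list level spanned 0.38 rather than 0.71. *Flt1*, a receptor gene for vascular endothelial growth factor, had 17.5, 28.1, 16.5, 17.95 and 7.95 CPM.

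Lymphatic genes spanned a wider range of levels than those of blood endothelium. The 6 members summed to 28.8, 19.5, 44.0, 50.03 and 12.1 CPM, with levels of -0.50, -0.39, 0.69, 0.92 and -1.03, a span of 1.95, or 2.99 with a pseudocount of 0.1. *Mmrn1*, which encodes a multimerin, had 0, 1.61, 9.55, 9.29 and 0.447 CPM, and *Lyve1*, the gene of a hyaluronan receptor, had 0.548, 1.23, 3.15, 3.55 and 0.357 CPM. Replicates 3 and 4 were high for both. *Ccl21a* was the most abundant member per kb, passed the mean of 1 CPM only through replicate 3 or 4 and belongs to a family of nearly identical copies, so its level is uncertain. The regulator gene *Prox1* was at 6.58, 4.27, 13.3, 12.2 and 8.48 CPM.

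Adipocyte genes marked replicate 3. Of 19 listed genes, 15 had a mean of at least 1 CPM and *Ucp1* was at 3 counts or fewer in every tumor. Sums were 194, 120, 451, 216 and 198 CPM and levels -0.14, -0.93, 1.52, 0.10 and -0.17. Replicate 3 was highest for 8 of 9 members with a mean of at least 5 CPM, against 4.75% of all genes tested on deposited CPM and 13.0% on TMM-scaled CPM; *Fabp4* and *Cfd* passed that mean only through replicate 3. *Adipoq*, the adiponectin gene, had 0.457, 0.474, 12.3, 1.82 and 1.16 CPM and passed the mean of 1 CPM only through replicate 3. The lipid droplet gene *Plin1* had 1.37, 0.379, 12.9, 2.64 and 1.70 CPM, and *Cfd*, which encodes the adipocyte protease adipsin, had 1.55, 1.14, 33.8, 4.92 and 3.48 CPM. *Car3*, which encodes a carbonic anhydrase abundant in fat and muscle, had 4.39, 2.47, 72.5, 15.6 and 14.2 CPM. *Pnpla2*, the lipase gene that led the list per kb, was even at 47.8, 37.0, 59.2, 48.3 and 45.0 CPM. Without replicate 3 the list level spanned 0.99.

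Macrophage genes were present in every tumor. Of the 19 listed, 18 had a mean of at least 1 CPM, sums were 761, 562, 625, 519 and 364 CPM, and levels were 0.24, -0.21, 0.38, 0.18 and -0.65. Replicate 5 was lowest for 10 of 12 members with a mean of at least 5 CPM, against 25.6% of all genes tested, and without it the list level spanned 0.53 rather than 1.03. *Csf1r*, which encodes the receptor that macrophages need to survive, had 33.3, 19.6, 37.4, 35.7 and 18.8 CPM. The complement gene *C1qb* had 70.4, 49.5, 81.5, 69.2 and 37.4 CPM, and *Mrc1*, which encodes the mannose receptor, had 11.8, 4.74, 16.7, 9.66 and 4.02 CPM. *Cd14*, an endotoxin co-receptor gene and the most abundant member per kb, took another order, with 310, 282, 97.3, 117 and 125 CPM.

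T cell and natural killer cell genes were low. The 16 T cell genes summed to 17.6, 12.8, 18.7, 18.01 and 8.12 CPM, 6 had a mean of at least 1 CPM, and levels lay between -0.39 and 0.19, a span of 0.59 that rose to 0.89 on CPM over protein-coding counts and 1.15 with a pseudocount of 0.1. *Cd3e*, a subunit gene of the T cell receptor complex, had 0.731, 0.379, 1.93, 1.46 and 0.536 CPM, and *Cd3d* was at 3 counts or fewer in every tumor. *Cd8a*, which marks cytotoxic T cells, had 4.66, 1.42, 1.49, 4.10 and 1.16 CPM, and *Foxp3* of regulatory T cells led the list per kb, with 3.00, 5.10, 3.29, 2.16 and 2.94 CPM. The 10 genes of natural killer and cytotoxic cells summed to 8.22, 4.93, 12.7, 10.7 and 4.82 CPM, 3 had a mean of at least 1 CPM, 2 of them only through replicate 3, and levels spanned 1.05, but 0.66 without replicate 2 and 2.20 with a pseudocount of 0.1. *Ncr1*, which marks natural killer cells, was at 0.274, 0.190, 0.701, 0.911 and 0 CPM, and the chemokine gene *Ccl5* led the list per kb.

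Dendritic cell genes summed to 46.0, 65.1, 54.8, 46.7 and 40.5 CPM, most of it from *Fscn1*, the actin-bundling gene that led the list per kb and is not restricted to these cells. The 10 members, 6 with a mean of at least 1 CPM, had levels between -0.30 and 0.33. This span of 0.63 was 0.36 without replicate 3, 0.28 over members with a mean of at least 5 CPM and 0.95 on CPM over protein-coding counts. *Clec9a*, a receptor gene of cross-presenting dendritic cells, had 1.55, 0.664, 3.58, 1.73 and 0.893 CPM. Of 14 B and plasma cell genes, 10 are in the deposited table, 4 had a mean of at least 1 CPM, and *Mzb1* was at 3 counts or fewer in every tumor. They summed to 11.0, 7.87, 58.5, 24.97 and 10.1 CPM, with levels of -0.62, -0.79, 1.56, 0.54 and -0.68, a span of 2.35, or 1.37 without replicate 3. *Jchain*, 1 of the 4, passed the mean only through replicate 3, so the level there is partly fixed by the filter. *Ighm*, which encodes the heavy chain of IgM, had 3.93, 2.09, 30.1, 7.75 and 3.13 CPM, and *Igkc*, the constant gene of the kappa light chain and most abundant per kb, had 1.83, 0.948, 12.4, 4.83 and 0.893 CPM.

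Granulocyte genes were nearly absent. Of 10 neutrophil genes, 7 are in the table and only *Csf3r*, the receptor gene for granulocyte colony-stimulating factor, had a mean of at least 1 CPM; the sums were 3.20, 9.58, 4.47, 1.64 and 2.77 CPM, *S100a8* led per kb, and *Mmp8* was at 3 counts or fewer in every tumor. Levels of this list rest on that 1 gene and were -0.03, 0.58, 0.35, -0.57 and -0.32, a span of 1.15, or 1.77 with a pseudocount of 0.1. Of 10 mast cell genes, 5 are in the table and only *Gata2* had a mean of at least 1 CPM, with sums of 1.28, 1.90, 4.64, 2.73 and 1.79 CPM and levels between -0.34 and 0.39, a span of 0.74 that was 0.45 without replicate 3 and 1.18 with a pseudocount of 0.1. The protease gene *Cma1*, the leading member per kb, was at 0, 0, 0.876, 0.364 and 0.0893 CPM. Erythroid genes, 5 of 7 in the table, all with a mean of at least 1 CPM and led per kb by the globin gene *Hba-a1*, summed to 27.9, 12.4, 13.2, 9.10 and 13.2 CPM, with levels between -0.37 and 0.93. They were highest in replicate 1, without which their levels spanned 0.37, and where *Hbb-bs*, a beta-globin gene with a near-identical copy, stood at 10.8 CPM.

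Skeletal muscle genes had their largest sum in replicate 5. The 15 members summed to 50.7, 18.4, 17.7, 20.1 and 267 CPM, and 5 of the 15 had a mean of at least 1 CPM. As *Acta1*, *Myh4* and *Atp2a1* passed this mean only through replicate 5, the list level there is partly fixed by the filter and supports nothing. *Ttn*, which encodes the giant sarcomere protein titin, had 43.0, 15.3, 11.3, 13.8 and 222 CPM. *Myh4*, the gene of the fastest myosin heavy chain, had 0 counts in replicates 1 to 4 and 8.13 CPM in replicate 5. *Ckm*, the muscle creatine kinase gene, had 0, 0, 0, 0.0911 and 4.20 CPM, and *Acta1*, which encodes skeletal muscle actin, had 2.01, 0.474, 0.613, 0.820 and 11.5 CPM. The myoglobin gene *Mb*, which led the list per kb, did not follow, with 5.24, 2.32, 5.50, 4.37 and 5.18 CPM. The part of muscle tissue in the low interferon, macrophage and endothelial levels of replicate 5 was not tested.

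Other lists concern tissue that can adhere to a mammary tumor. Of 15 genes of skin keratinocytes, 10 are in the table, 4 had a mean of at least 1 CPM, and *Lor*, *Dsg1a* and *Krt77* were at 3 counts or fewer in every tumor. Sums were 55.2, 22.5, 15.6, 19.7 and 11.3 CPM and levels 1.18, -0.18, -0.31, -0.02 and -0.75. The defining gene *Krt1* was near 0 (0.0914, 0.664, 0.350, 0.273 and 0 CPM), while *Sprr1a*, a cornified envelope gene and the leading member per kb, had 21.1, 1.80, 2.63, 3.10 and 1.52 CPM, and *Krt6a*, an inducible keratin gene, had 20.9, 0.840, 1.31, 3.53 and 0.659 CPM. The high level in replicate 1 thus came with *Sprr1a* and *Krt6a* and without *Krt1*. The list level spanned 1.94, or 0.61 without replicate 1. This span was 3.13 over members with a mean of at least 5 CPM, of which *Sprr1a* and *Krt6a* passed only through replicate 1. The 8 Schwann cell genes, 7 with a mean of at least 1 CPM, summed to 537, 335, 435, 475 and 466 CPM, with levels of 0.17, -0.43, -0.09, 0.20 and 0.09. *Sox10*, which led this list per kb and is also expressed in mammary epithelium, had 398, 238, 323, 322 and 349 CPM. *Cdh19*, a cadherin gene of glial cells, had 34.2, 3.51, 19.5, 41.9 and 12.7 CPM.

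**Figure D3:**
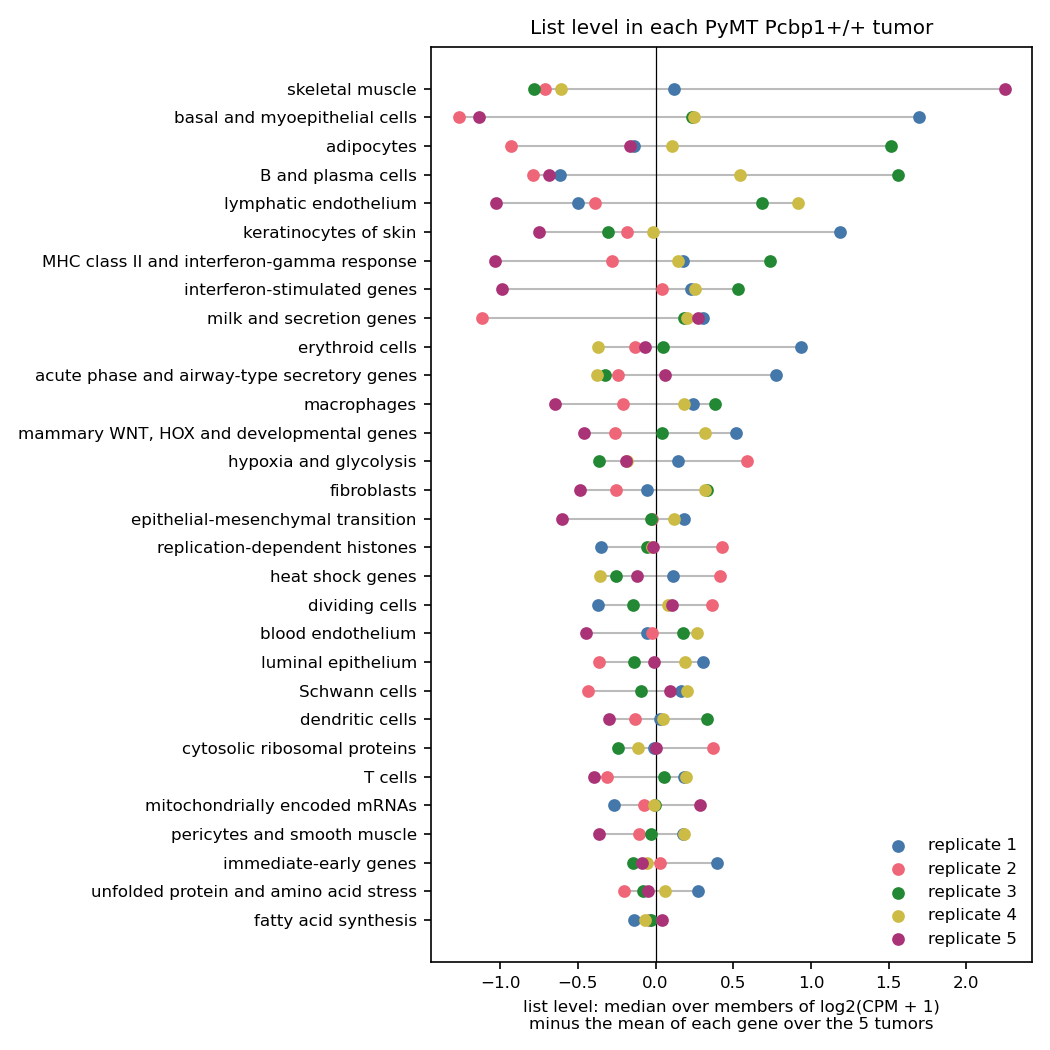
List level in each PyMT *Pcbp1*+/+ tumor, 1 point per tumor, for lists with at least 4 members at a mean of at least 1 CPM, ordered by their span. The horizontal axis is the median over members of log2(CPM + 1) minus the mean of each gene over the 5 tumors; replicate 5 is lowest for interferon-stimulated genes at -0.99. For skeletal muscle, 3 of 5 members passed that mean only through replicate 5.

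Interferon-stimulated genes, which type I interferon induces through STAT and IRF factors, were expressed in every tumor and lowest in replicate 5. All 40 members had a mean of at least 1 CPM, with sums of 2208, 1983, 2730, 2315 and 1006 CPM and levels of 0.23, 0.04, 0.53, 0.26 and -0.99. Replicate 5 was lowest for 38 of 38 members with a mean of at least 5 CPM, against 25.6% of all genes tested, and replicate 3 was highest for 29, against 4.75%. With TMM scaling, replicate 5 was lowest for 37 and replicate 3 highest for 33, against 20.7% and 13.0% of all genes tested. A 4-fold range was reached by 11 of the 38, against 4.42% of all genes tested, and in 10 of these the pair was replicate 3 over replicate 5, against 30 of all 481 genes (6.24%). Without replicate 5 the list level spanned 0.46 rather than 1.52.

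*Ifit3*, which encodes an antiviral RNA-binding protein, had 79.7, 42.9, 103, 72.4 and 14.8 CPM. *Trim30a*, a ubiquitin ligase gene, had 46.4, 29.6, 48.8, 49.3 and 7.50 CPM. The ubiquitin-like modifier gene *Isg15* had 31.5, 38.2, 38.8, 28.4 and 10.2 CPM, and *Ifit1* had 86.7, 83.5, 93.7, 74.99 and 21.6 CPM. Replicate 5 was lowest for each of these genes, and for *Ifit3* replicate 2 lay between it and the others. *Parp14*, which encodes an ADP-ribosyltransferase, had 155, 127, 233, 171 and 87.0 CPM, whereas *Dtx3l*, a ubiquitin ligase gene, was nearly even at 165, 162, 170, 161 and 128 CPM. *Ifitm3* was the most abundant member per kb.

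Genes of antigen presentation and interferon-gamma response followed the same order at both ends. The 26 members, all with a mean of at least 1 CPM, summed to 1040, 679, 1487, 985 and 432 CPM, with levels of 0.17, -0.28, 0.74, 0.15 and -1.03. Of 20 members with a mean of at least 5 CPM, 18 were highest in replicate 3 and 18 lowest in replicate 5, against 4.75% and 25.6% of all genes tested. Among the 20, *Cd274* passed that mean only through replicate 3. A 4-fold range was found in 6, against 4.42%, all of them with replicate 3 over replicate 5, against 6.24% of the 481 genes. *Iigp1*, an immunity-related GTPase gene, had 115, 44.8, 219, 104 and 24.9 CPM, and *Gbp4*, a guanylate-binding protein gene, had 10.4, 2.85, 18.6, 7.65 and 1.34 CPM. *Cd74*, which encodes the invariant chain and led the list per kb, had 186, 89.4, 181, 147 and 58.5 CPM, and *H2-Aa*, an MHC class II gene, had 61.6, 32.2, 69.8, 64.4 and 21.8 CPM. The class II transactivator gene *Ciita* was an exception, with 24.5, 16.03, 41.9, 29.7 and 35.6 CPM and its lowest value in replicate 2. Without replicate 5 the list level spanned 0.96 rather than 1.77. Macrophage genes also had their highest level in replicate 3 and their lowest in replicate 5, and their part in both interferon lists was not tested.

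Promoter sequences were examined because the interferon-stimulated genes moved together. The motif searched was 2 copies of GAAA with 2 bases of any kind between them, on either strand, the core of the interferon-stimulated response element. Promoters were taken as 250 bases before to 50 after each annotated start (RefSeq, GRCm38.p6), and 29 of the 40 listed genes had at least 1. The motif was found in 15 of these 29 genes, or 51.7%, and in 3.99% of all 27025 genes with a promoter sequence; a match is a description of the sequence and not a site of binding. Of the first 3 genes of the list, *Irf7* had no match in this window, *Isg15* had 3 that overlap and *Ifit1* had 2. The sequences of the latter pair are shown 5′ to 3′ along the strand of the gene, with matches in capitals, for *Isg15* at chr4:156200769-156201068 on the minus strand and *Ifit1* at chr19:34640639-34640938 on the plus strand.
Isg15: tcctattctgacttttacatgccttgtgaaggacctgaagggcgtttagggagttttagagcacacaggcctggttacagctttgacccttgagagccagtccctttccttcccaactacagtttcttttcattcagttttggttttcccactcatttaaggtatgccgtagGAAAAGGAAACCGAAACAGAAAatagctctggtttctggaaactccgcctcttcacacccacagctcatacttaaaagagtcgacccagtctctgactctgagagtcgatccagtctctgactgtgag
Ifit1: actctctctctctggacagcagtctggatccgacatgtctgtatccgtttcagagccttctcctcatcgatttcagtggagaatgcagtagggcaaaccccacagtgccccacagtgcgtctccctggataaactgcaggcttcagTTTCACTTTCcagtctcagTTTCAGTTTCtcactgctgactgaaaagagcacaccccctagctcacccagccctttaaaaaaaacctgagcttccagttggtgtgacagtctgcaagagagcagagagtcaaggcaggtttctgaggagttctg

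Replicate 2 was highest for genes of hypoxia and glycolysis. The 22 members, 21 with a mean of at least 1 CPM, summed to 1703, 2372, 1348, 1494 and 1558 CPM, with levels of 0.14, 0.59, -0.36, -0.19 and -0.19. Replicate 2 was highest for 15 of 20 members with a mean of at least 5 CPM, against 29.8% of all genes tested, and without it the list level spanned 0.44 rather than 0.95. *Vegfa*, the vascular endothelial growth factor gene, had 65.4, 146, 42.3, 32.3 and 43.8 CPM, *Car9*, a hypoxia-induced carbonic anhydrase gene, had 12.4, 27.8, 9.46, 10.8 and 16.8 CPM, and *Aldoa* of glycolysis had 136, 296, 149, 157 and 140 CPM. *Ldha*, which encodes lactate dehydrogenase A and led the list per kb, had 248, 308, 235, 263 and 189 CPM. The glucose transporter gene *Slc2a1* did not peak in replicate 2, with 42.4, 38.6, 33.5, 31.8 and 23.4 CPM.

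Heat shock genes were also highest in replicate 2. All 10 members had a mean of at least 1 CPM, with sums of 985, 1263, 710, 774 and 873 CPM and levels of 0.11, 0.41, -0.26, -0.36 and -0.12. Without replicate 2 the span was 0.42 rather than 0.77. *Hspb1*, which encodes the small heat shock protein HSP27 and led the list per kb, had 65.4, 233, 49.9, 46.6 and 44.8 CPM, and *Hspa1b*, an inducible HSP70 gene with a near-identical copy, had 221, 287, 123, 120 and 145 CPM. The 20 immediate-early genes, all with a mean of at least 1 CPM, summed to 1454, 1243, 958, 986 and 1058 CPM, with levels of 0.40, 0.03, -0.14, -0.06 and -0.09, highest in replicate 1, without which they spanned 0.12. *Fos* had 87.1, 53.0, 44.1, 42.8 and 43.5 CPM, *Egr1* had 210, 274, 71.2, 85.6 and 85.4 CPM, and *Jund* led the list per kb.

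Lipid synthesis and protein folding genes differed between tumors in single members more than in list level. The 12 genes of fatty acid synthesis summed to 2838, 2382, 2224, 2232 and 2264 CPM and their levels lay between -0.14 and 0.04, a span of 0.18 that rose to 0.35 with TMM scaling. *Fasn*, the fatty acid synthase gene, had 166, 171, 207, 181 and 230 CPM, while *Scd1*, a desaturase gene and the leading member per kb, had 1203, 687, 665, 721 and 407 CPM. The 15 genes of the unfolded protein and amino acid stress response summed to 1341, 1059, 1304, 1517 and 1597 CPM, with levels between -0.20 and 0.27. *Atf4*, the central transcription factor gene of this response, was at 96.6, 88.2, 88.0, 81.6 and 89.2 CPM, and *Xbp1*, the leading member per kb, at 426, 461, 686, 781 and 871 CPM. Without replicate 1 the span of the stress response list was 0.26 rather than 0.48. The median range of members was 0.68 and 0.81 in these lists, against 0.56 over all genes tested, and 0 of 11 and 0 of 14 members with a mean of at least 5 CPM had a 4-fold range.

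The list of mesenchymal transition genes had its lowest level in replicate 5, where 5 of 13 members with a mean of at least 5 CPM were lowest, a count near the 25.6% of all genes tested. The 16 members, all with a mean of at least 1 CPM, summed to 1570, 936, 799, 1045 and 733 CPM, with levels of 0.18, -0.02, -0.03, 0.12 and -0.60, which spanned 0.13 without replicate 5 and 0.50 without replicate 2. *Vim*, which encodes vimentin, had 261, 153, 133, 161 and 82.3 CPM, *Zeb1* had 39.4, 12.6, 25.6, 25.8 and 12.7 CPM, and the growth factor gene *Tgfb3*, which led the list per kb, had 803, 276, 248, 448 and 334 CPM. These members were highest in replicate 1. Fibroblasts express several of them, and the fibroblast list was lowest in replicate 5 too; its part was not tested.

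The list of secretory defense genes had its highest level in replicate 1, where 4 of 7 members with a mean of at least 5 CPM were highest, against 29.8% of all genes tested; *Saa3* and *Clca1* passed the mean of 1 CPM only through this tumor. With only members at a mean of at least 5 CPM, the list level was highest in another tumor. Of 16 acute phase and airway-type secretory genes, 11 are in the table and 10 had a mean of at least 1 CPM, with sums of 1777, 1121, 868, 1260 and 1455 CPM and levels of 0.78, -0.24, -0.32, -0.38 and 0.06, which spanned 0.62 without replicate 1. *Saa1*, a serum amyloid A gene with a near-identical neighbor in *Saa2*, had 113, 17.9, 17.9, 15.04 and 46.6 CPM. *Pigr*, which encodes the receptor that carries IgA across epithelium, had 46.8, 18.2, 80.8, 107 and 94.9 CPM, lowest in replicate 2, and *Lcn2*, shared with the luminal list, led the list per kb. The 16 mammary WNT, HOX and developmental genes, 12 with a mean of at least 1 CPM and led per kb by *Sox10*, summed to 966, 679, 678, 742 and 714 CPM, with levels of 0.52, -0.26, 0.04, 0.32 and -0.46. *Wnt4*, a mediator gene of progesterone signaling, had 15.99, 4.36, 9.73, 18.6 and 5.00 CPM, and *Wnt5a* had 122, 16.4, 65.8, 75.8 and 88.7 CPM. *Id4*, a regulator gene of basal mammary cells, had 74.4, 5.31, 19.9, 31.6 and 10.3 CPM. Replicate 2 was lowest for these 3 genes.

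Large gene families were mostly highest or lowest in the same tumor. Of 79 genes of cytosolic ribosomal proteins, 77 had a mean of at least 1 CPM and *Rpl39l* was at 3 counts or fewer in every tumor, with sums of 3492, 4602, 3021, 3300 and 3639 CPM and levels of -0.01, 0.37, -0.24, -0.11 and 0.0048. Replicate 2 was highest for 62 of 67 members with a mean of at least 5 CPM, and for 59 with TMM scaling, against 29.8% and 28.7% of all genes tested. Without replicate 2 the ribosomal list level spanned 0.24 rather than 0.61. Single members can share reads with pseudogene copies. The 66 replication-dependent histone genes, 64 with a mean of at least 1 CPM, summed to 3135, 5248, 3613, 3832 and 3840 CPM, with levels of -0.35, 0.43, -0.05, -0.02 and -0.01. Replicate 2 was highest for 58 of 62 histone genes with a mean of at least 5 CPM and replicate 1 lowest for 55, against 29.8% and 9.06% of all genes tested. Under TMM scaling the counts were 57 and 60, against 28.7% and 18.6%. The histone list level spanned 0.78, and 0.33 without replicate 2 and 0.48 without replicate 1. *Rpl41* and *Hist1h4h* led these lists per kb. The order of replicates 1 and 2 in the histone genes was that of the dividing-cell genes. The 13 mitochondrially encoded messengers had levels of -0.27, -0.07, -0.0046, -0.0098 and 0.28, and replicate 1 was lowest for all 13 under each of the 4 scalings used, against 9.06% of all genes tested on deposited CPM and 18.6% with TMM scaling. Their levels spanned 0.55, and 0.35 without replicate 1 and 0.27 without replicate 5. None of the members of these lists with a mean of at least 5 CPM had a 4-fold range.

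Position in the genome was examined after the data had been seen, and chromosomes 11, 16 and 17 were singled out for their values. The median difference of the genes of a chromosome from their own means, relative to the median of all genes in that tumor, was 0.24 for 350 genes of chromosome 16 and 0.25 for 520 genes of chromosome 17 in replicate 5. In the other 4 tumors these chromosomes lay between -0.10 and -0.01. On chromosome 11, with 912 genes, the median was 0.17 in replicate 2, -0.16 in replicate 1 and 0.09 in replicate 5. Over the 17 other chromosomes all medians lay between -0.06 and 0.08. Replicate 5 was the highest tumor for 53.7% of the genes of chromosome 16 and 53.7% of those of chromosome 17, against 14.7% of all genes tested, and for 63.1% and 63.5% with TMM scaling, against 24.6%. Replicate 2 was highest for 50.5% of the genes of chromosome 11, against 29.8%, and for 45.2% with TMM scaling, against 28.7%. These shifts were small for a single gene.

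**Figure D4:**
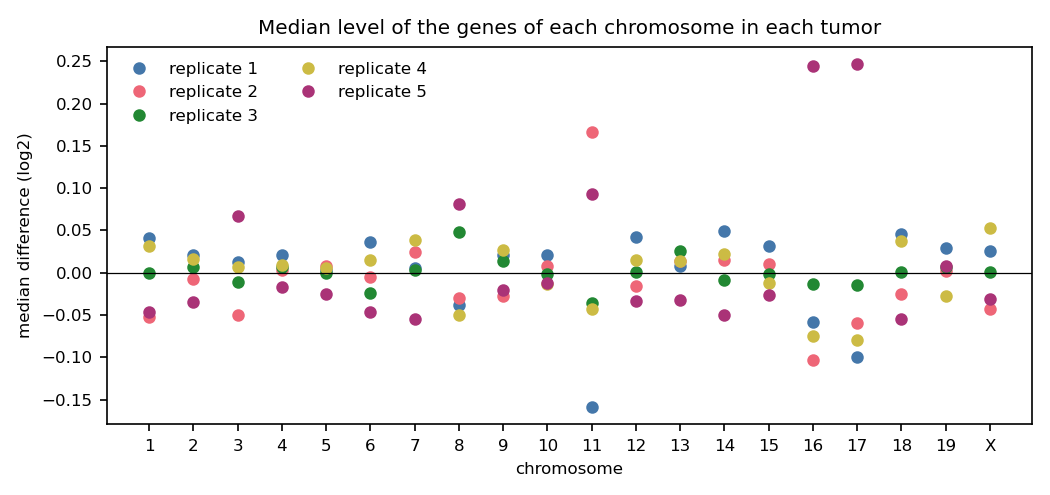
Median over the protein-coding genes of each chromosome (horizontal axis) of the log2(CPM + 1) difference of each gene from its mean over the 5 tumors, relative to the median of all genes in that tumor (vertical axis, log2), 1 point per tumor. Replicate 5 stands at 0.24 and 0.25 on chromosomes 16 and 17, and replicates 1 and 2 at -0.16 and 0.17 on chromosome 11.

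Runs of at least 3 neighboring protein-coding genes that were all higher in the same tumor than in every other by at least 0.8 on the log2 scale were also sought after the data had been seen. There were 5 on deposited CPM and 9 when CPM was taken over protein-coding counts, which included the genes of the 5. The largest values belonged to an interval of chromosome 6 in replicate 2. *Vamp1*, which encodes a vesicle fusion protein (chr6:125215551-125245964, plus strand), had 129, 1324, 128, 165 and 139 CPM. *Tapbpl*, a chaperone gene of antigen loading (chr6:125223933-125231860, minus strand), had 16.9, 150, 20.5, 27.2 and 15.5 CPM, and *Cd27*, a lymphocyte receptor gene (chr6:125232622-125237010, minus strand), had 9.59, 155, 13.8, 14.3 and 10.8 CPM. Both lie inside the interval of *Vamp1* on the other strand, so without knowledge of strand in the counting their reads cannot be told apart from those of *Vamp1*.

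Other runs were weaker in level. On chromosome 3, replicate 2 was highest for the cornification genes *Flg* (0.365, 4.55, 0.876, 0.547 and 2.05 CPM), *Hrnr*, *Rptn* and *Tchh*. As *Flg* and *Rptn* passed the mean of 1 CPM only through replicate 2, this run is partly fixed by the filter. On chromosome 11 the monocarboxylate transporter gene *Slc16a11* had 1.19, 29.9, 1.14, 3.10 and 2.95 CPM, next to *Slc16a13* and *Bcl6b*. On chromosome 6 a further run in replicate 2 held *Svopl*, *Atp6v0a4* and *AC157667.1*. It is partly fixed by the filter too, since *Svopl* and *Atp6v0a4* passed the mean of 1 CPM only through replicate 2. The run of replicate 3 on chromosome 17 held MHC class I genes that are similar in sequence and hence uncertain, with *H2-Q7* at 76.7, 47.2, 211, 84.4 and 22.1 CPM, beside *H2-Q6* and *H2-Q10*.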

How the data were processed

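The authors sequenced RNA from whole mammary tumors and deposited estimated counts per gene, together with CPM, in which every tumor has the same total over all genes. The submitters' processing notes name FastQC, Bowtie2, Partek and GRCm38; the gene annotation and counting method are not given in the sources used here. The 5 PyMT *Pcbp1*+/+ tumors were described alone, and no test between groups was made. CPM was used as deposited on the scale of log2(CPM + 1), for protein-coding genes with a mean of at least 5 CPM; list levels and runs of neighboring genes used a mean of at least 1 CPM. Exon lengths came from GENCODE vM39 (GRCm39), matched by Ensembl identifier, and no coordinates were taken from it. Deposited stop positions were reduced by 1 base. Estimated counts were rounded to whole numbers for edgeR 4.0.16 (R 4.3.3; filterByExpr, TMM factors, intercept-only dispersion) and DESeq2 1.42.0 (size factors only). Python 3.11.15 with NumPy 2.4.6, pandas 2.3.3 and SciPy 1.17.1 was used for the rest. The measures were tested on simulated data, where the coefficient of variation of strongly variable genes came out too low and their order was recovered only in part; other edgeR settings gave no better order, so no result leans on coefficients of single variable genes.

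The members and the 33 gene lists (20 of cell types, 10 of programs and 3 gene families) were chosen with earlier results of these data known. Named genes were picked by rule: the 15 nuclear genes and all mitochondrial genes highest in mean CPM per kb, the 15 highest in mean CPM, the 25 with the largest SD of log2(CPM + 1), the first 3 members, the 3 most abundant and the 2 most variable of each list, the 10 on-off genes with the highest CPM, the 5 with the largest range in each of the 3 largest pairs, the 8 with the smallest coefficient of variation among genes with a mean of at least 50 CPM, and *Pcbp1*, *Pcbp2* and *Xist*. The alternatives were TMM and DESeq2 scaling, CPM over protein-coding counts, a pseudocount of 0.1, other filters and thresholds, and each tumor left out in turn. Chromosome medians, windows of neighboring genes (looked at but not reported), runs of neighboring genes, lists without shared members and class shares without *Rn18s-rs5* were added after seeing the data. Some genes that the rule names are not reported here.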

Additional observations from a re-analysis of the deposited data

Results flagged for a closer look

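Samples that stood far from the other 4 were sought in 100 sets of values (6 RNA classes, 33 lists, 34 abundant genes, 24 variable genes and 3 genes used to check labels), where the gap from the extreme tumor to its nearest neighbor exceeded 0.71 of the whole range (Dixon's critical value for 5 samples), taken on percentages for the classes and on the log2 scale for lists and genes, although genes are printed in CPM; chance gives about 1 in 20, or 5 of 100, and 6 were found. Genes named for their large spread are not like sets taken at random. The class of nuclear ribosomal RNA, which counts *Rn18s-rs5* alone, held 8.72% of the counts in replicate 3, against 1.84% in the next tumor. *RP23-81C12.1* and *RP23-81C12.3* of the same interval are left out, and for these the tumors fell in other orders. Milk and secretion genes had a list level of -1.12 in replicate 2, against 0.18 in the next. Genes of mesenchymal transition had a list level of -0.60 in replicate 5, against -0.03 in the next. *Hist1h4h* was at 213 CPM in replicate 2, with 167 CPM as the nearest value. *Rpl27-ps3*, a pseudogene-like entry of uncertain level, was at 177 CPM in replicate 2, with 110 CPM as the nearest. *Sp6* was at 22.9 CPM in replicate 2, with 1.92 CPM as the nearest. It passed the mean of 5 CPM only through replicate 2, so that its place here is partly fixed by the filter.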

How the results depend on the processing

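No paired analysis was possible because a single group was described and its replicate numbers pair nothing. The count of genes with a 4-fold range was 437 with TMM scaling, 440 with DESeq2 size factors, 623 with CPM over protein-coding counts and 573 with a pseudocount of 0.1, against 481. It was 725 with no filter and 237 at a mean of at least 20 CPM, since fewer or more genes were tested, and between 229 and 458 with each tumor left out. The number of on-off genes was 21 with off at 0 counts and 18 with on at 10 CPM, and between 25 and 59 with each tumor left out. The first component held between 43.2% and 48.1% of the variance under other scalings, filters and pseudocounts, and between 47.8% and 62.9% with each tumor left out, where fewer tumors share the variance. Between 11 and 17 lists spanned at least 1 under the alternatives run, against 14, and at least 14 of the 15 most abundant nuclear genes per kb were shared with each alternative. Of the 50 genes with the largest coefficient of variation, 34 were among the 50 with the largest SD.

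In 165 combinations of list and setting, the highest tumor was the same in 149 and the lowest in 151; the exceptions were the highest tumor of the milk, fibroblast, blood endothelium, dendritic, Schwann, mesenchymal transition, acute phase and mammary developmental lists and the lowest tumor of the lymphatic, dendritic, muscle, immediate-early, hypoxia, mammary developmental and ribosomal lists. Lists without shared members, chromosome medians and the share of protein-coding counts without *Rn18s-rs5* (58.2% on average, against 56.6%) were chosen after seeing the data. Of 24 alternative chromosome medians, 0 moved by more than the spread of the other tumors. Counting error limits genes near 0.285 CPM, and the animal each tumor came from is not given in the sources used here, so differences between animals, tumors and pieces of tissue cannot be told apart.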
